A study of Mus musculus with 6 samples.

Results

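The transcription factor NRF2 and 9 genes around it were followed in 6 subcutaneous mouse pancreatic tumours. The set comprises the factor itself (Nfe2l2), its inhibitor (Keap1) and 8 genes known as NRF2 targets (Nqo1, Hmox1, Gclc, Gclm, Txnrd1, Srxn1, Slc7a11 and G6pdx). Members were taken by gene symbol, which gave 10 rows of the 55357 genes in the deposited table. None of the 10 symbols occurred more than once. All 10 were among the 15023 genes tested, those averaging 1 TPM or more (TPM is a transcript abundance scaled for transcript length and to an equal total per library).

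The tumours were grown under the skin of C57BL/6J mice from 250000 injected cells of KPC1242, a murine line of pancreatic ductal adenocarcinoma. The FA group (3 tumours) received 2 mg of folinic acid, a reduced folate, by mouth each day from day 8 to day 12, and the PBS group (3 tumours) received phosphate-buffered saline on the same days. All tumours were collected on day 14. All carry the same transplanted line together with the stroma, vessels and immune cells of the host, and the sources used here give neither the sex nor the age of the mice. The labels do not state that every tumour came from a different mouse, so p-values measure the spread between these tumours, which may be partly technical. The codes in the sample descriptions share 1 beginning per group, and whatever it denotes cannot be told apart from treatment. The study asked how FA alters the tumour microenvironment.

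NRF2 protein is normally held by KEAP1 and handed to the CUL3-RBX1 ubiquitin ligase for degradation. Oxidants and electrophiles modify KEAP1, NRF2 then accumulates, pairs with small MAF proteins and binds antioxidant response elements beside its target genes, where BACH1 competes with it. The targets supply glutathione, reduced thioredoxin and NADPH, break down haem and detoxify quinones. Control of NRF2 acts largely on protein stability, so the level of Nfe2l2 mRNA does not measure NRF2 activity.

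RefSeq promoter windows (build GRCm38.p6, 250 bases before to 50 after a start site) were found for 8 of the 10 genes, in 10 windows (3 of them Txnrd1). The core of the antioxidant response element, TGACNNNGC, was searched on both strands, and 5 windows of 5 genes held it. Among all 32851 windows in the table, 12.4% held it. The matches are shown because the genes that carry them include members that varied in opposite directions between tumours. Each is printed 5′ to 3′ along the gene's strand, with the matched letters in capitals.
Nfe2l2: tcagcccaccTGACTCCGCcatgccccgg
Gclm: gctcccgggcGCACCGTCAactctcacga
Txnrd1: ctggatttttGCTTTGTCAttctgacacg
Srxn1: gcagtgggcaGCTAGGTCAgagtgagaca
G6pdx: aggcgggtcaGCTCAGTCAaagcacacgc
The printed stretches lie at chr2:75704885-75704913 (minus strand) for Nfe2l2, chr3:122245413-122245441 (plus strand) for Gclm, chr10:82859104-82859132 (plus strand) for Txnrd1, chr2:152105542-152105570 (plus strand) for Srxn1 and chrX:74428919-74428947 (minus strand) for G6pdx. The match begins 240, 134, 92 and 57 bases before the start site of its window for Nfe2l2, Gclm, Txnrd1 and G6pdx. For Srxn1 it begins at base 29 of the transcribed part. In Nfe2l2 it reads along the gene's strand, and in the other 4 the letters read TGACNNNGC on the opposite strand. No match overlapped the AP-1 motif TGANTCA, which 7.81% of all windows and 1 of the 10 member windows held. The windows of Keap1, Nqo1 and Slc7a11 and the other Txnrd1 windows held no match, which says only that these letters are not in those windows. Hmox1 and Gclc are named without a sequence.

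No gene of the set passed the test between FA and PBS tumours. By limma with Benjamini-Hochberg adjustment over all 15023 genes, the adjusted p was 1 for each of the 10, and 0% of all genes tested were called. At an unadjusted p under 0.05 there were 0 of 10 members, beside 1.28% of all genes tested. With the variance trend left out there was 1 member (Slc7a11), beside 146 higher and 101 lower of the 15023 genes tested. The median log2 difference over the 10 was 0.02 and over all genes tested 0.0016, with 6 members higher and 4 lower in FA, beside 50.7% of all genes tested with an estimate above 0. Slc7a11 was the single member whose groups did not overlap, beside 4.69% of all genes tested. FA replicate 3 was the highest or the lowest tumour for 8 of 10 members, beside 66.9% of all genes tested, so it stood apart in the whole transcriptome.

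**Figure D1:**
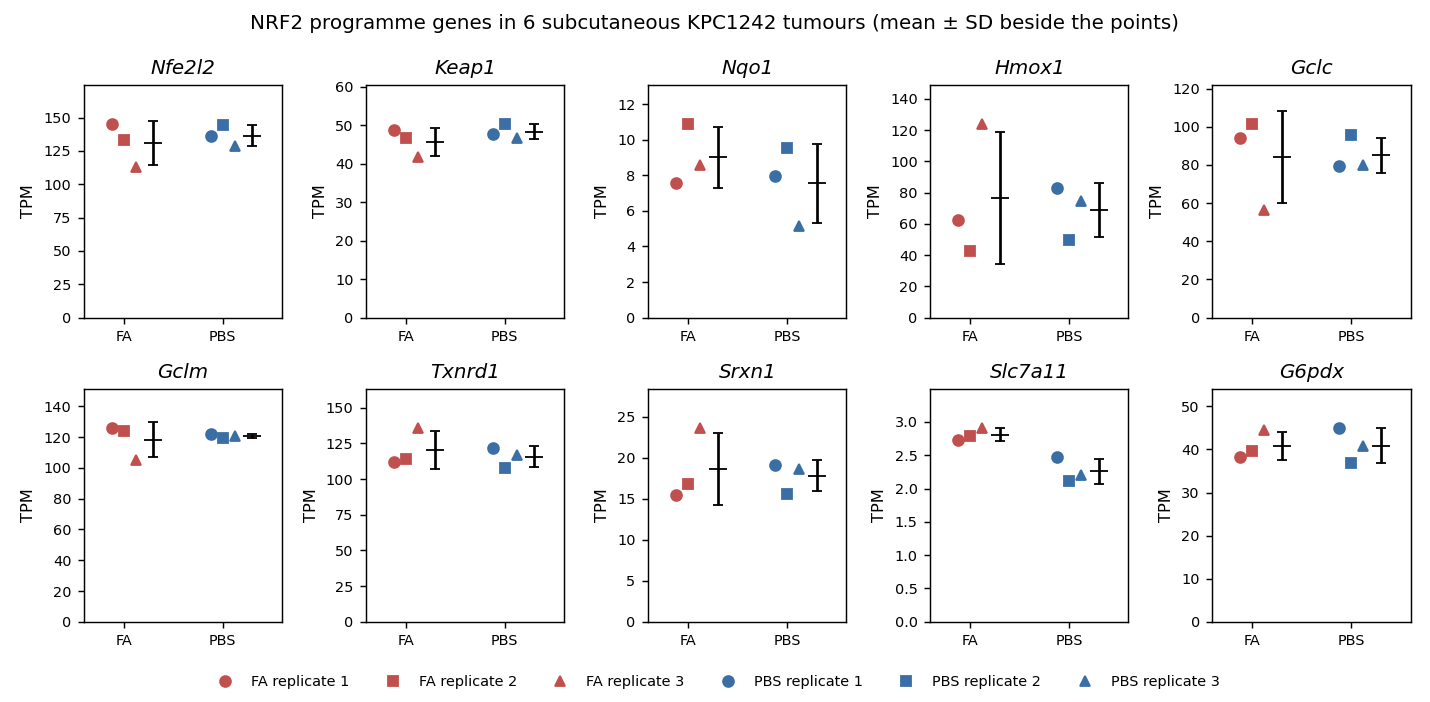
TPM of each gene (vertical axis, starting at 0) in the FA and PBS tumours, 1 point per tumour, with mean ± SD (n = 3) beside the points. Only Slc7a11 shows 2 groups that do not overlap, and FA replicate 3 is the outermost point for Hmox1, Gclc, Gclm, Txnrd1, Srxn1, Nfe2l2, Keap1 and, at the upper end, Slc7a11.

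Markers of cell types were compared between the tumours first. Ductal keratin 19 (Krt19) ranged from 1071 to 1312 TPM and Krt8 from 1448 to 1908 TPM, so these keratins were abundant in every tumour. Of the 7 ductal markers, 3 (Krt19, Krt8 and Epcam) were highest in FA replicate 3 and 2 (Sox9 and Muc1) lowest there. Epcam ran from 26.1 to 111 TPM, Sox9 from 33.9 to 51.0 TPM and Muc1 from 238 to 488 TPM. Of the defining acinar genes, Amy2b was listed at 0 in all 6 tumours Cpa1, Prss2 and Pnlip were under 1 TPM, and Cela1 lay between 42.3 and 78.0 TPM. Correlated across genes (not independent replicates), FA replicate 3 reached at most 0.968 with another tumour, while every other tumour reached at least 0.986. All 8 macrophage markers, all 7 fibroblast markers, all 6 endothelial markers and all 7 skeletal muscle markers were highest in FA replicate 3. So were 2 of the 3 adipocyte markers tested, but 0 of the 4 erythroid markers tested. The summed erythroid markers were highest in PBS replicate 3, at 426 TPM, against 222 TPM in FA replicate 3. In bulk RNA, fewer cells of a type and less RNA per cell cannot be told apart.

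Nfe2l2 (ENSMUSG00000015839) had the highest mean TPM of the 10 over the 6 tumours, and its inhibitor gene ordered the tumours in a similar way. Nfe2l2 stood at 145, 134 and 113 TPM under FA (replicates 1, 2 and 3) and at 136, 145 and 129 TPM under PBS. FA replicate 3 was the lowest, below Txnrd1 and Hmox1 in that tumour, and the groups overlapped. Nfe2l2 had a log2 difference (FA minus PBS, on log2(TPM + 1)) of -0.07 ± 0.10 (SE) and a 95% interval from -0.32 to 0.18. Keap1 (ENSMUSG00000003308), the substrate adaptor that recognises NRF2, stood at 48.7, 46.6 and 41.7 TPM under FA and 47.8, 50.4 and 46.7 TPM under PBS. Its lowest value was again in FA replicate 3, and its log2 difference was -0.08 ± 0.08 (interval from -0.28 to 0.12). The ratio of the length-scaled levels of Nfe2l2 to Keap1 ranged from 2.71 to 2.99 over the 6 tumours. Mean ratios were 2.85 ± 0.138 under FA and 2.83 ± 0.063 under PBS (SD, n = 3 each), closer than the spread within the FA group.

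Glutathione synthesis was represented by both subunits of glutamate-cysteine ligase, its rate-limiting enzyme. The catalytic subunit gene Gclc (ENSMUSG00000032350) stood at 94.3, 102 and 56.4 TPM under FA and 79.3, 95.8 and 80.0 TPM under PBS. Both other FA tumours were above 2 of the 3 PBS tumours, and FA replicate 3 was far below all 5 others. The log2 difference was -0.06 ± 0.22 with all tumours, 0.21 without FA replicate 3 and -0.21 without FA replicate 2. The modifier subunit gene Gclm (ENSMUSG00000028124) was steadier, at 126, 124 and 105 TPM under FA and 122, 119 and 121 TPM under PBS. Its coefficient of variation (SD over mean) was 9.58% in FA and 1.15% under PBS, against 28.9% and 10.9% for Gclc. The log2 difference of Gclm was -0.03 ± 0.08, with an interval from -0.23 to 0.16.

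The Gclm to Gclc ratio, on TPM, was 1.34, 1.22 and 1.87 under FA and 1.54, 1.25 and 1.51 under PBS. FA replicate 3 had the highest ratio, and the groups overlapped. Slc7a11 (ENSMUSG00000027737), the light chain of the cystine-glutamate exchanger that brings in cystine for glutathione, was the scarcest of the 10. It stood at 2.73, 2.79 and 2.91 TPM under FA and 2.47, 2.11 and 2.20 TPM under PBS. Every FA tumour was above every PBS tumour, a pattern shown in this direction by 2.48% of all genes tested. The log2 difference was 0.23 ± 0.13 (interval from -0.08 to 0.53), with an unadjusted p of 0.124 by limma, an adjusted p of 1, and an exact two-sided permutation p of 0.1 (no smaller p is possible with 3 against 3).

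Without the variance trend the unadjusted p of Slc7a11 was 0.0312 by limma and its adjusted p was 1. Without any single tumour the Slc7a11 difference lay between 0.19 and 0.27, and it was 0.30 with a pseudocount of 0.1, because a pseudocount of 1 compresses differences at so few TPM. Slc3a2, the heavy chain of the same exchanger, was at 165 ± 8.56 TPM under FA and 168 ± 2.53 TPM under PBS (SD, n = 3 each), with a log2 difference of -0.03 ± 0.06. Slc3a2 also serves other amino acid transporters.

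The 2 genes of the thioredoxin branch were high and low in similar tumours. Txnrd1 (ENSMUSG00000020250), cytosolic thioredoxin reductase, stood at 112, 114 and 136 TPM under FA and 122, 108 and 117 TPM under PBS. FA replicate 3 was the highest, both other FA tumours lay within the PBS range, and the log2 difference was 0.06 ± 0.10 (interval from -0.17 to 0.29). Srxn1 (ENSMUSG00000032802), sulfiredoxin, which repairs over-oxidised peroxiredoxins, stood at 15.5, 16.8 and 23.7 TPM under FA and 19.1, 15.6 and 18.7 TPM under PBS. Its log2 difference was 0.05 ± 0.17 with all tumours and -0.13 without FA replicate 3. For both genes PBS replicate 1 was the second highest tumour.

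Hmox1 (ENSMUSG00000005413), inducible haem oxygenase, had the widest spread of the 10. It stood at 62.8, 42.6 and 124 TPM under FA and 82.8, 49.7 and 74.8 TPM under PBS. The highest and the lowest tumours were both in the FA group and differed 2.92-fold. Its coefficient of variation over the 6 tumours was 40.2%, above 90.8% of all genes tested, whose median was 11.9%. The log2 difference was 0.04 ± 0.39 with an interval from -0.89 to 0.97, and it was -0.38 without FA replicate 3 and 0.38 without FA replicate 2.

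Hmox1 is also expressed by macrophages, and markers of several host cell types moved with it at the top of its range. The summed level of the 8 macrophage markers was 1010, 1083 and 2076 TPM under FA and 1295, 1062 and 1032 TPM under PBS, with no marker at 0 in any tumour. The summed level of the 7 fibroblast markers was 1903, 2370 and 6523 TPM under FA and 3528, 1833 and 2417 TPM under PBS, also with none at 0. FA replicate 3 and PBS replicate 1 were first and second for both sums and for Hmox1. They were also first and second for the summed endothelial and skeletal muscle markers, and for Txnrd1 and Srxn1. The erythroid sum went otherwise, highest in PBS replicate 3 (426 TPM) and lowest in PBS replicate 1 (53.1 TPM). The macrophage and fibroblast sums were higher in FA replicate 2 than in FA replicate 1, the reverse of Hmox1. Their part in the Hmox1 values was not tested.

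Nqo1 (ENSMUSG00000003849), the quinone reductase often read as the standard NRF2 target, was low and over all 6 tumours followed no other member closely. It stood at 7.57, 10.9 and 8.57 TPM under FA and 7.98, 9.53 and 5.15 TPM under PBS. FA replicate 2 was the highest and PBS replicate 3 the lowest, 2.12-fold apart. Over all 6 tumours the Pearson r of Nqo1 was -0.407 with Hmox1, its largest in absolute size, and 0.261 with Gclc. Without FA replicate 3 these were -0.766 and 0.768. The log2 difference was 0.25 ± 0.23 (interval from -0.30 to 0.79, unadjusted p of 0.312 by limma), and without PBS replicate 3 it was 0.03. G6pdx (ENSMUSG00000031400), glucose-6-phosphate dehydrogenase and a source of NADPH, was at 38.4, 39.8 and 44.5 TPM under FA and 45.01, 36.9 and 40.8 TPM under PBS. The group means were 40.9 ± 3.22 and 40.9 ± 4.05 TPM (SD, n = 3 each), and the interval of their log2 difference ran from -0.24 to 0.24. G6pd2, a close copy of G6pdx with which reads may be shared, was at most 0.16 TPM.

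**Figure D2:**
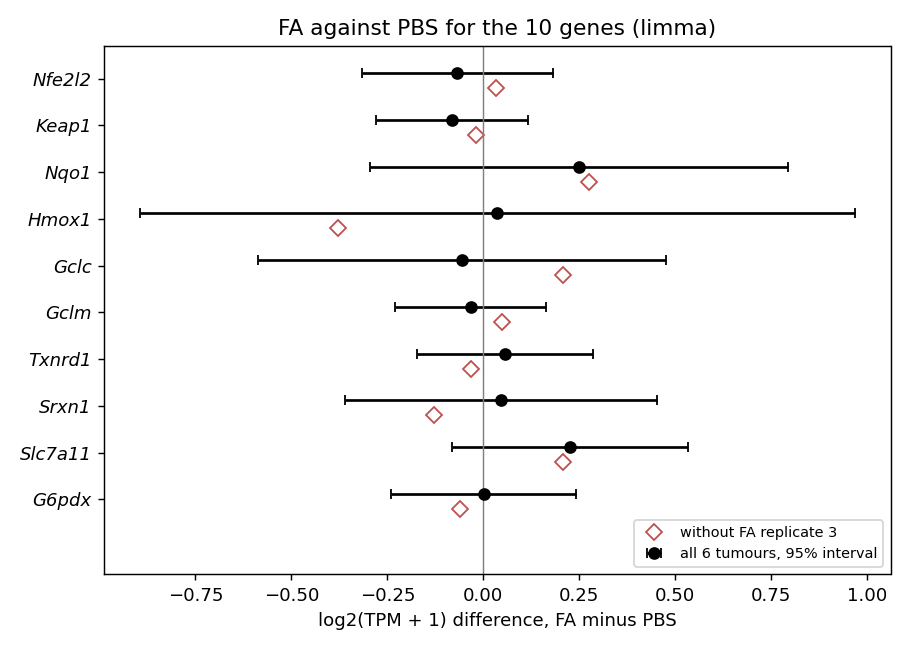
Log2(TPM + 1) difference, FA minus PBS (horizontal axis), for each gene by limma. Filled points and bars are estimates and 95% intervals from all 6 tumours, and open diamonds are estimates without FA replicate 3. All 10 intervals include 0, and 7 of the 10 estimates change sign when that tumour is left out.

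Ordered by mean TPM over the 6 tumours, the genes ran Nfe2l2 (134), Gclm (120), Txnrd1 (118), Gclc (84.6), Hmox1 (72.8), Keap1 (47.0), G6pdx (40.9), Srxn1 (18.2), Nqo1 (8.29) and Slc7a11 (2.54). The ranges of neighbours overlapped from Nfe2l2 to Txnrd1 and from Gclc to G6pdx. They did not overlap between Txnrd1 and Gclc, nor at any step from G6pdx downward. Nfe2l2 was above 92.9% of all genes tested in level and Slc7a11 above 14.4%.

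Across tumours many members varied in opposite directions. On the scale of log2(TPM + 1) minus the 6-tumour mean, Gclc, Nfe2l2, Gclm and Keap1 were lowest in FA replicate 3, at -0.55, -0.23, -0.18 and -0.17. Hmox1, Srxn1, Txnrd1 and Slc7a11 were highest there, at 0.85, 0.37, 0.21 and 0.15. Of all genes tested, 37.5% were lowest and 29.4% highest in that tumour. G6pdx was at 0.12 in that tumour and higher still, at 0.14, in PBS replicate 1. In PBS replicate 2 most of these deviations had the other sign, with Hmox1 at -0.45, Srxn1 at -0.20, Txnrd1 at -0.13 and G6pdx at -0.14, beside Gclc at 0.20, Nfe2l2 at 0.12 and Keap1 at 0.10. Gclm was at its mean there (-0.00041). Nqo1 was above its mean in both tumours, at 0.07 in FA replicate 3 and 0.21 in PBS replicate 2. FA replicate 1 also had the other sign from FA replicate 3 for Hmox1 (-0.12), Srxn1 (-0.20), Txnrd1 (-0.08), G6pdx (-0.09) and Nqo1 (-0.09). So it did for Gclc (0.18), Nfe2l2 (0.13), Gclm (0.08) and Keap1 (0.05), while Slc7a11 (0.08) kept its sign. Each mean includes FA replicate 3. Genes with a TGACNNNGC match in the printed windows lay on both sides in FA replicate 3, Nfe2l2 and Gclm below their means and Txnrd1, Srxn1 and G6pdx above.

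**Figure D3:**
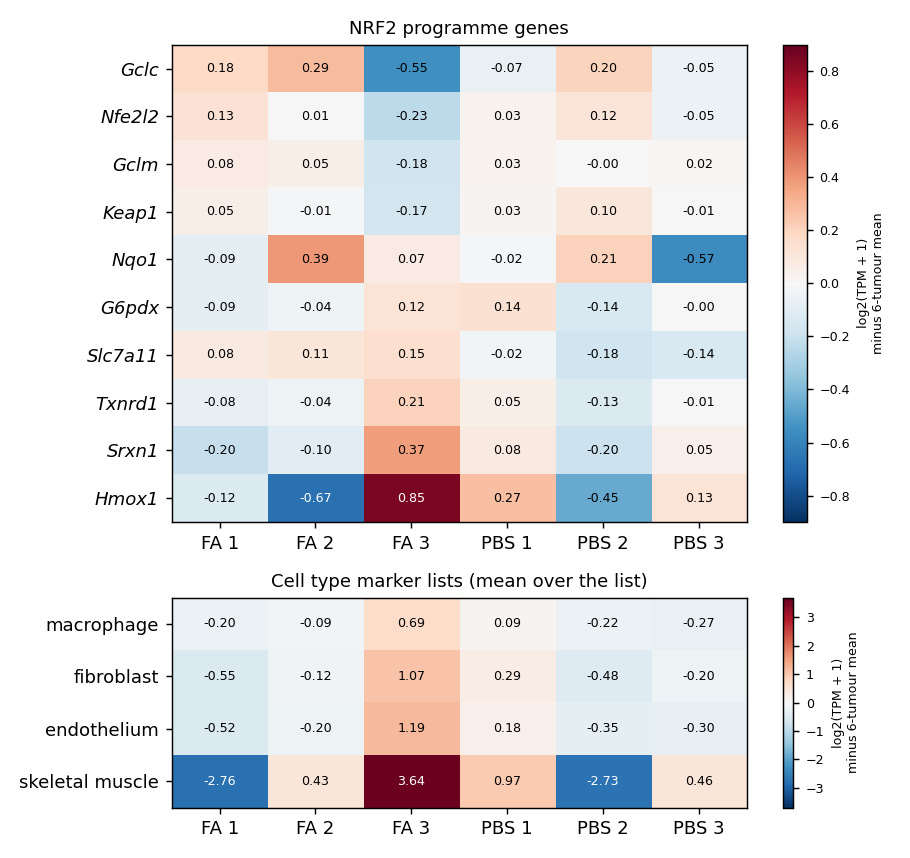
Log2(TPM + 1) minus the mean of the 6 tumours, for the 10 genes (top, ordered by FA replicate 3) and for the mean over 4 cell type marker lists (bottom, with a wider colour scale), in each tumour. FA replicate 3 runs from -0.55 for Gclc to 0.85 for Hmox1 and is above the mean for all 4 lists. FA replicate 1 and PBS replicate 2 are both below the mean for all 4, and FA replicate 2 and PBS replicate 3 for all but skeletal muscle.

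Of 45 pairs of members compared over the 6 tumours, 20 had a Pearson r above 0 and 25 below. The values of a pair come from the same library and the same TPM total. By exact permutation of pairings, 14 pairs had an unadjusted p under 0.05 and 0 passed after Benjamini-Hochberg adjustment over the 45. With 720 pairings no p can fall below 0.00139, which for 1 pair alone adjusts to 0.0625. A single pair could therefore not pass, and the 0 does not show that the pairs are unrelated. The counts of 14 and 0 were not computed for pairs drawn from all genes tested, so they cannot be called particular to this set. FA replicate 3 was the highest or lowest tumour for 66.9% of all genes tested. The pair of largest r was Txnrd1 and Srxn1 (r = 0.978, exact permutation p = 0.00278, adjusted p = 0.0625; Spearman rho = 0.943, p = 0.0167, adjusted p = 0.25; n = 6). Without the 2 tumours farthest from the Txnrd1 median its r was 0.936. Nfe2l2 and Keap1 gave r = 0.97 (exact permutation p = 0.00556, adjusted p = 0.0769; rho = 0.886, p = 0.0333, adjusted p = 0.3), and r = 0.935 without 2 tumours.

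The third pair, Hmox1 and Gclc, ran in opposite directions. Its r was -0.961 (exact permutation p = 0.00139, adjusted p = 0.0625, n = 6) and its rho was -1 (p = 0.00278, adjusted p = 0.125). The order of the tumours by Hmox1 was thus the exact reverse of their order by Gclc. The unadjusted p-values of this r and rho are the smallest that permuting 6 tumours allows. Without the 2 tumours farthest from the Hmox1 median r was -0.916, and without FA replicate 3 alone it was -0.945. The other 2 pairs also kept their sign without FA replicate 3, at 0.926 for Txnrd1 with Srxn1 and 0.878 for Nfe2l2 with Keap1. Over all 45 pairs, 9 changed sign without that tumour.

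**Figure D4:**
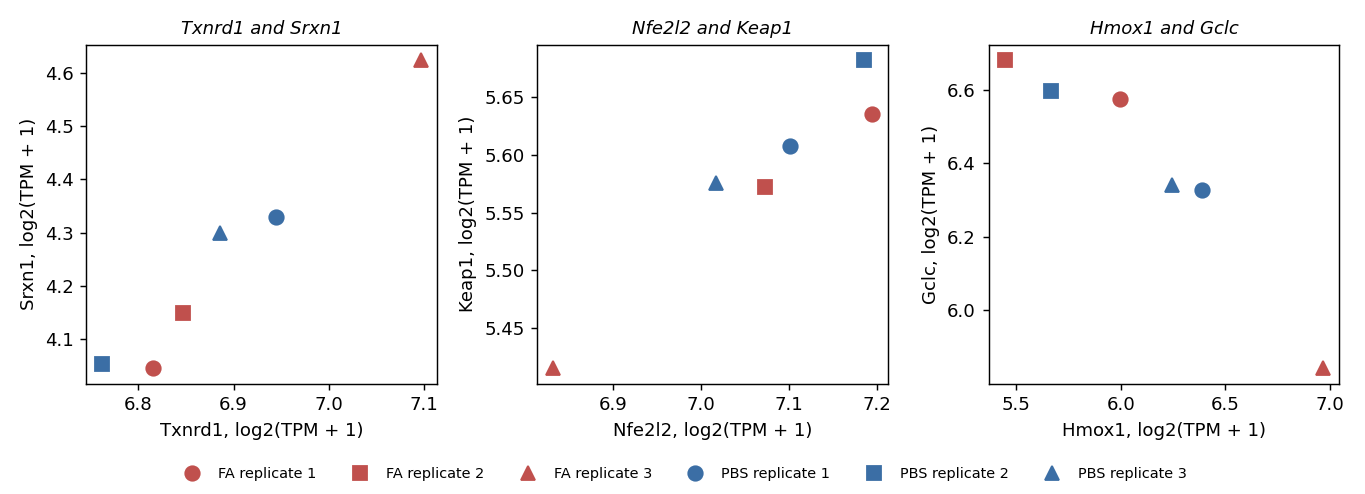
Levels of 3 gene pairs on log2(TPM + 1) axes, 1 point per tumour, coloured by group and shaped by replicate. Points slope upward for Txnrd1 with Srxn1 (r = 0.978) and for Nfe2l2 with Keap1 (r = 0.97), and downward for Hmox1 with Gclc (r = -0.961), with no pair past the adjusted threshold. With 6 tumours a single pair could not pass it, whatever its r.

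The regulators that act with NRF2 showed no called difference. In a list of 14 regulators and partners, 0 passed the test in either direction, 7 had a higher and 7 a lower estimate in FA, and the median log2 difference was -0.0016. Bach1, the repressor that competes for the same elements, was at 16.1 ± 0.23 TPM under FA and 15.2 ± 1.62 TPM under PBS. The small MAF partner gene Mafg was at 42.0 ± 1.12 and 39.9 ± 1.66 TPM, and Maff at 62.2 ± 6.77 and 67.0 ± 1.22 TPM. Cul3, the ligase scaffold, was at 117 ± 14.5 and 124 ± 5.69 TPM. Sqstm1 (p62), which can draw KEAP1 into autophagy, was at 358 ± 57.0 and 382 ± 23.5 TPM, with its lowest value in FA replicate 3. The related factor gene Nfe2l1 was at 127 ± 8.75 and 116 ± 14.5 TPM, all SD over n = 3.

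Glutathione use and the thioredoxin system were covered by 22 and 13 tested genes, of which 0 and 0 were called. Their median log2 differences were 0.0075 and 0.06. The exporter gene Abcc3 was at 39.5 ± 2.56 TPM under FA and 35.4 ± 1.89 TPM under PBS, with groups that did not overlap and a log2 difference of 0.15 ± 0.08 (unadjusted p of 0.104 by limma). The exporter gene Abcc4 was at 24.5 ± 1.61 and 21.6 ± 3.11 TPM. Glutathione reductase (Gsr) was at 120 ± 4.95 and 124 ± 6.59 TPM, and glutathione synthetase (Gss) at 62.6 ± 5.34 and 64.9 ± 6.14 TPM.

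Among peroxiredoxins, which remove peroxides at the expense of thioredoxin, Prdx1 was at 1258 ± 131 TPM under FA and 1310 ± 7.22 TPM under PBS. Prdx2 was at 600 ± 27.8 and 647 ± 18.0 TPM, with every FA tumour below every PBS tumour, a direction that 2.22% of all genes tested showed. Its log2 difference was -0.11 ± 0.06 (unadjusted p of 0.103 by limma, adjusted p of 1). Thioredoxin itself (Txn1) was at 561 ± 35.3 and 585 ± 18.0 TPM, and its mitochondrial form Txn2 at 214 ± 22.7 and 199 ± 2.27 TPM.

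NADPH supply, with 8 genes tested, had 0 calls and a median of 0.02. Of its members, H6pd, a hexose-6-phosphate dehydrogenase of the endoplasmic reticulum, had groups that did not overlap, at 72.1 ± 2.44 TPM under FA and 68.0 ± 0.261 TPM under PBS. Its log2 difference was 0.08 ± 0.06 (unadjusted p of 0.213 by limma), and 2.48% of all genes tested did not overlap in this direction. The pentose phosphate enzyme gene Pgd was at 118 ± 19.5 and 110 ± 4.10 TPM, and Taldo1 at 117 ± 27.7 and 105 ± 3.24 TPM, both highest in FA replicate 3. Malic enzyme (Me1) was at 142 ± 43.8 and 155 ± 9.41 TPM and lowest in FA replicate 3. Of the 8 genes, 2 were highest and 4 lowest in that tumour, beside 29.4% and 37.5% of all genes tested.

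Among 15 detoxification genes 0 were called, with a median of -0.0069. Aldh1a1, a retinal dehydrogenase, was at 7.93 ± 1.83 TPM under FA and 5.63 ± 0.674 TPM under PBS (unadjusted p of 0.058 by limma, the smallest of these lists). The aldo-keto reductase gene Akr1c13 was at 51.0 ± 14.9 and 66.7 ± 7.44 TPM, but its groups overlapped.

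Haem and iron genes, 12 in number, also gave 0 calls, with a median of -0.03. Ferritin heavy chain (Fth1) was at 1919 ± 126 TPM under FA and 2054 ± 66.1 TPM under PBS, and light chain (Ftl1) at 2471 ± 306 and 2450 ± 61.2 TPM. The Fth1 to Ftl1 ratio was 0.875, 0.853 and 0.634 under FA and 0.844, 0.884 and 0.789 under PBS, lowest in FA replicate 3. Constitutive haem oxygenase (Hmox2) was at 55.7 ± 2.98 and 52.9 ± 2.30 TPM, a narrower spread than that of Hmox1. The scavenger receptor gene Cd163, a macrophage gene for haemoglobin uptake, was at 6.51 ± 2.98 and 4.11 ± 1.41 TPM, and haemopexin (Hpx) at 1.94 ± 1.01 and 2.90 ± 0.238 TPM.

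Superoxide and peroxide removal had 4 genes and 0 calls. Mitochondrial Sod2 was at 34.3 ± 5.71 TPM under FA and 31.0 ± 0.22 TPM under PBS, and catalase (Cat) at 76.9 ± 17.9 and 84.0 ± 1.86 TPM. Slc7a11 is also a target of ATF4, the factor of the integrated stress response, and 12 genes of cystine uptake and that response gave 0 calls with a median of 0.01. Atf4 was at 290 ± 31.9 and 283 ± 13.3 TPM, Ddit3 at 36.1 ± 16.8 and 43.4 ± 3.02 TPM, and Ddit4 at 78.6 ± 26.8 and 103 ± 14.5 TPM.

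Over these 8 lists together, 0 of 100 tested genes passed the test and 0 had an unadjusted p under 0.05 by limma, with 53 higher and 47 lower estimates in FA. Without FA replicate 3, 0 of the 100 passed. The groups did not overlap for 3 of the 100, namely Abcc3, H6pd and Prdx2, beside 4.69% of all genes tested. FA replicate 3 was the highest or lowest tumour for 68 of the 100, against 66.9% of all genes.

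**Figure D5:**
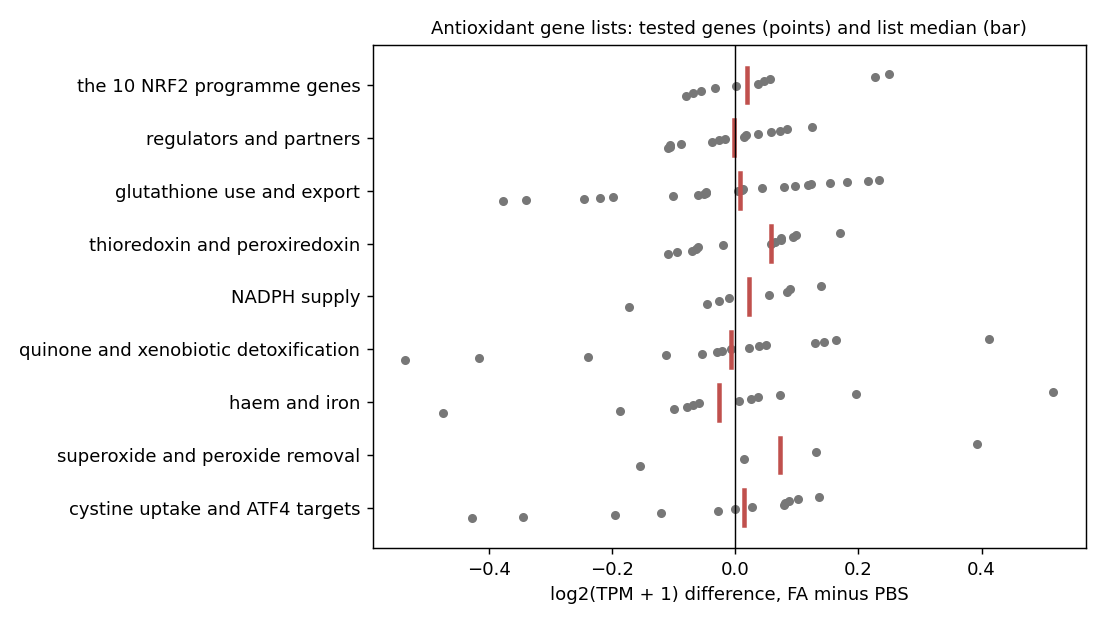
Log2(TPM + 1) difference, FA minus PBS (horizontal axis), of every tested gene in the set of 10 and in 8 further lists (points, spread vertically for legibility), with the list median (bar). Medians lie between -0.03 and 0.07, and all lists hold genes on both sides of 0.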

How the data were processed

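RNA of 3 FA and 3 PBS tumours was measured with 1 stranded total RNA library each. The authors deposited 1 table of TPM for 55357 Ensembl genes paired with symbols. FastQC, STAR, featureCounts and RSEM are listed in the submitters' processing notes. The sources used here give no versions, roles, genome build or annotation. TPM keeps no depth, so reads per tumour are unknown and no counting interval is given. Each column was tied to its tumour by the description in the sample labels.

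Values were analysed as log2(TPM + 1) with limma 3.58.1 in R 4.3.3, with a variance trend, no covariate and two-sided Benjamini-Hochberg adjusted p-values at 0.05, on genes averaging 1 TPM or more. A fold change on this scale understates the change of low genes. Single genes were also compared by exact permutation over 20 assignments. The members and lists were chosen with earlier results of these data known. Named genes are the 10 members, 16 fixed genes, and from each of 8 lists the 2 of smallest unadjusted p. Alternatives covered pseudocounts, filters, rescaling, quantile normalization, variance trend, array weights, a replicate block, a muscle covariate, the threshold and each tumour left out.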

Additional observations from a re-analysis of the deposited data

How the results depend on the processing

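By limma, the count of genes past the threshold stayed at 0 higher and 0 lower except in 2 settings, with 2 higher genes without the filter and 0 to 1 lower gene when 1 tumour was left out, the 1 without FA replicate 3. None of the 10 members passed in any setting, at an adjusted p of at least 0.829. Keap1, Nqo1 and Slc7a11 kept their sign in every setting run. Slc7a11 was not testable at a mean of at least 5 TPM.

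Signs of the other 7 reversed in some settings, and the cause was not tested. With array weights, whose estimation stopped before it converged, the log2 differences were 0.021 for Nfe2l2, -0.35 for Hmox1, 0.17 for Gclc, 0.024 for Gclm, -0.021 for Txnrd1, -0.11 for Srxn1 and -0.056 for G6pdx. With the muscle covariate they were -0.11 for Hmox1, 0.035 for Gclc, -0.029 for Srxn1 and -0.035 for G6pdx. G6pdx was at -0.0031 with median-ratio rescaling and -0.0011 when rescaled without the 50 highest genes and those encoded in mitochondria. Leaving out 1 tumour gave -0.15 to 0.032 for Nfe2l2, -0.38 to 0.38 for Hmox1, -0.21 to 0.21 for Gclc, -0.079 to 0.049 for Gclm, -0.033 to 0.11 for Txnrd1, -0.13 to 0.16 for Srxn1 and -0.069 to 0.071 for G6pdx. Leaving out FA replicate 3 for the 8 lists was chosen after seeing the data.

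Deviations of same-numbered FA and PBS tumours correlated at -0.208, 0.0533 and -0.0221, and those of differently numbered ones at -0.192 to 0.245. With 3 tumours per group, these values cannot tell whether replicate numbers pair the tumours. The replicate block gave 0 higher and 0 lower genes. What depth limits cannot be told from TPM.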
